A study of Canis lupus familiaris with 29 samples.

Results

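Integrins are heterodimers of an alpha and a beta subunit that span the plasma membrane and bind collagens, laminins, fibronectin and other matrix proteins outside the cell. Inside the cell, talin and kindlin bind the beta tail and switch the receptor to its active state, and vinculin, zyxin, paxillin and focal adhesion kinase then assemble on it into focal adhesions, which tie the matrix to actin and signal through SRC family kinases. In kidney epithelium these receptors hold the basal side of the cell to its basement membrane. The genes described here are integrins and focal adhesion genes, chosen by name: 35 names were looked up, and 31 of them had a row in the deposited tables of 24223 dog genes. ITGB3, ITGB4, LIMS1 and TNS3 were not among the named rows and were not analysed here. All 31 passed the expression filter of at least 1 FPKM (fragments scaled by transcript length and by the library's total) in at least 2 libraries, which left 11774 genes to test.

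The 29 libraries, in 13 groups, hold RNA of MDCKII, a kidney epithelial line from dog. Wild-type cells were taken for seeding (day 0, n = 4), on top of matrigel, a basement membrane gel on which they form cysts (called 3D), at 24 h and days 3, 5 and 8 (n = 2 each) and day 14 (n = 1), and on transwell inserts, porous supports on which they form a monolayer (called 2D), at days 4 and 11 (n = 3 each). Cells of the genotypes DENND5A-KD and AVL9-KD, knockdowns of a DENN domain gene each, were taken at day 0 and at 2D day 4 (n = 2 each), and DENND5A-KD cells also at 2D day 7 (n = 2). Their replicates are numbered 1 and 2 (DENND5A-KD) or 1 and 4 (AVL9-KD) and are called lines below. What a number stands for, how the knockdown was made and whether wild-type replicates were separate cultures are not given in the sources used here, so the p-values reflect only how far these samples differ from each other, possibly for technical reasons. Knockdown cells are set against untreated wild-type cells, since no knockdown control line is among the samples, and an effect of making a line cannot be told apart from that of the targeted gene.

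The libraries that stood apart from the rest were 5 of wild type: replicate 1 of day 0, of 3D day 3, of 3D day 8 and of 2D day 4, and the day 14 library. Their depth, relative to day 0 replicate 2, was 0.44 to 0.74, and TIMM13, a mitochondrial import chaperone, was listed at 0 in all 5 and at 30.9 or more in the other 24. For some comparisons, counts of changed genes are therefore also given without them. The number of calls kept without them over all comparisons is given at the end. Epithelial markers summed to 736 to 1577 FPKM over 6 genes, and marker sums of fibroblasts (7 genes), endothelium (6 genes) and leukocytes (5 genes) did not exceed 0.644, 1.08 and 0.694 FPKM. DENND5A read 1.88 and 2.02 FPKM in DENND5A-KD cells at day 0 against 4.98 to 6.89 in wild type, and 3.36 and 4.29 against 10.2 to 10.9 at 2D day 4. AVL9 read 5.70 and 7.21 FPKM in AVL9-KD cells at day 0 against 22.2 to 23.7 in wild type, and 3.89 and 6.35 against 17.9 to 25.1 at 2D day 4.

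The first question was how the matrix receptors and their adhesion machinery differ between cysts on gel and monolayers on inserts. Most of them were lower on gel: 26 of 31 genes were lower and 0 were higher, by limma with a Benjamini-Hochberg adjusted p under 0.05, a threshold used for every call below. The genes with the largest differences were the matrix protein THBS1, the LIM proteins LPP and ZYX, the collagen receptor subunit ITGA1 and the actin linkers TLN1 and VCL. The comparison set the mean of gel days 3, 5 and 8 against the mean of insert days 4 and 11, 6 libraries on each side. Of all 11774 genes, 34.8% were lower and 22.1% higher in the same comparison. At an unadjusted p under 0.05 the count of higher genes was also 0. The median log2 fold change of the 31 genes was -0.68, that of all genes tested -0.08. In 21 of the 31, all 6 gel libraries lay below all 6 insert libraries, which held for 18.3% of all genes, and in 0 did all gel libraries lie above, which held for 8.15%. Without the libraries that stood apart the count was again 26 lower and 0 higher, and leaving out any 1 library gave 25 or 26 called genes. Under quantile normalization 27 were lower and 1 higher, and under median-ratio scaling 25 were lower and 1 higher. The share of called genes that were higher, over all genes, moved from 38.9% to 49.8% and 50.1% under these scalings. In bulk RNA of this kind, fewer cells of a type and less RNA per cell cannot be told apart.

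**Figure D1:**
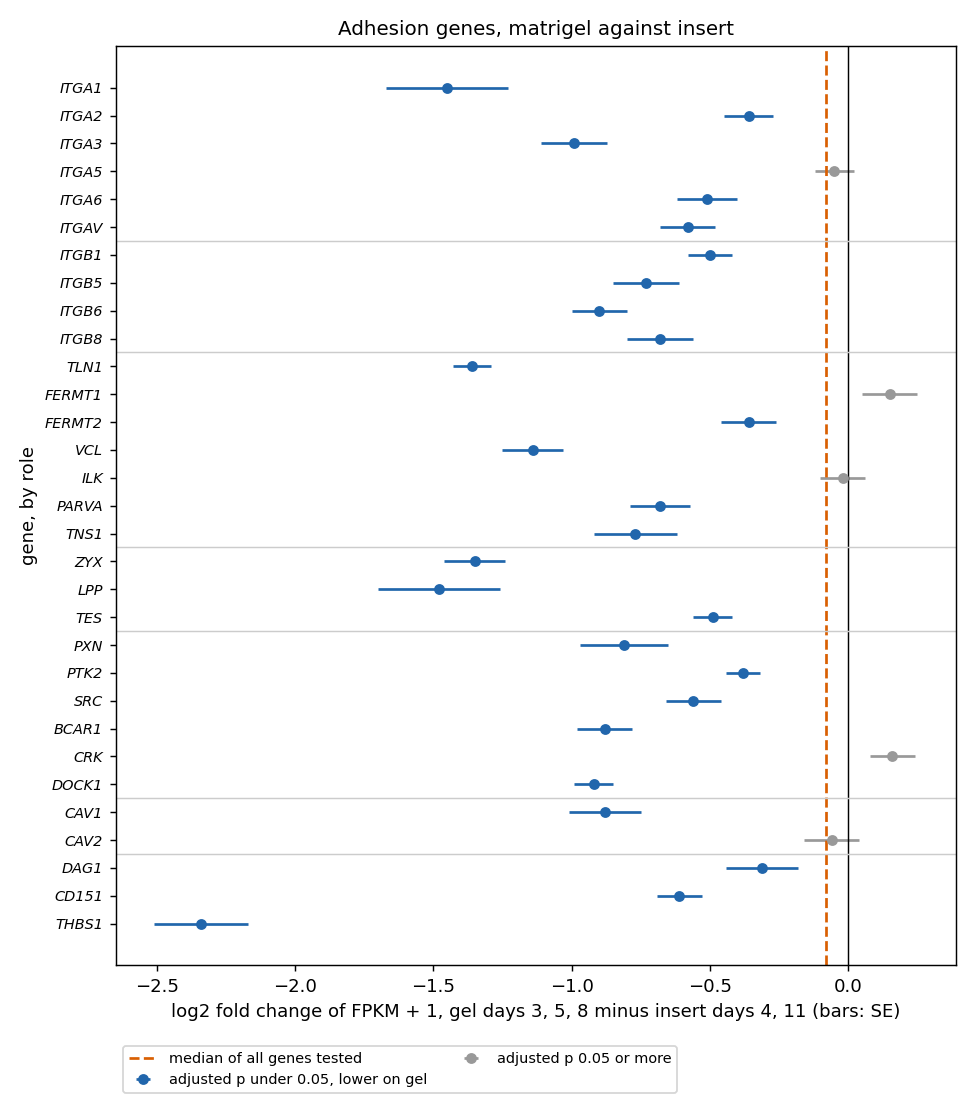
Log2 fold change of FPKM + 1 (x axis) between gel days 3, 5 and 8 and insert days 4 and 11 for the 31 genes with a row (y axis, grouped by role), with standard errors from limma as bars. Blue points passed an adjusted p of 0.05, grey points did not, and the dashed line is the median of all genes tested, -0.08. The points reach from -2.34 (THBS1) to 0.16 (CRK), and 26 of them are blue.

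Among the alpha subunits, 5 of 6 were lower on gel. ITGA1, which pairs with ITGB1 to bind collagen, read 5.53 and 5.71, then 8.49 and 9.52, then 9.60 and 6.04 FPKM on gel (days 3, 5 and 8). On inserts it read 24.2, 19.7 and 24.4 FPKM at day 4 and 19.6, 22.0 and 20.5 at day 11. All gel libraries lay below all insert libraries, and the log2 fold change was -1.45 ± 0.22 (SE, adjusted p = 1.55e-05 by limma). ITGA3, a subunit of a laminin receptor, read 23.0 and 21.9, then 17.4 and 21.0, then 20.5 and 14.7 FPKM on gel at days 3, 5 and 8, against 41.5, 40.6 and 30.0 at insert day 4 and 46.0, 44.7 and 37.8 at day 11. Here too the sides did not overlap, and the difference was -0.99 ± 0.12 (adjusted p = 7.92e-07 by limma).

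ITGAV, the alpha partner of ITGB5, ITGB6 and ITGB8 in receptors for RGD-containing ligands, read 12.4 to 21.1 FPKM on gel and 23.5 to 32.5 on inserts (log2 fold change -0.58 ± 0.10). ITGA6, another laminin receptor subunit, and ITGA2, another collagen receptor subunit, were lower by smaller margins (-0.51 ± 0.11 and -0.36 ± 0.09), and their libraries overlapped between the sides. ITGA6 read 2.88 to 8.74 FPKM on gel and 5.38 to 9.77 on inserts, and ITGA2 40.5 to 78.2 and 62.4 to 85.7. ITGA5, the alpha subunit of the fibronectin receptor, was at or below 0.164 FPKM in every wild-type library, so its fold change between gel and insert (-0.05) rests on values near 0. It passed the filter only through DENND5A-KD libraries.

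All 4 beta subunits with a row were lower on gel, and in each of them the libraries of the sides did not overlap. ITGB1, the common partner of the collagen, laminin and fibronectin receptor alphas, was the most abundant integrin subunit, with 57.5 to 79.1 FPKM on gel and 88.5 to 106 on inserts (log2 fold change -0.50 ± 0.08). ITGB6, which with ITGAV binds the latent form of TGF-beta, read 15.2 to 21.8 FPKM on gel and 29 to 39.9 on inserts (-0.90 ± 0.10). ITGB8, which shares that ligand, read 37.4 to 56.1 and 63.0 to 85.4 (-0.68 ± 0.12), and ITGB5, of a vitronectin receptor, 14.6 to 22.6 and 28.4 to 39.8 (-0.73 ± 0.12). In order of mean FPKM at 2D day 11, ITGB1 stood first, followed by ITGA2 and ITGB8, whose libraries overlapped, then ITGA3, then ITGB6, and ITGB5, then ITGAV, ITGA1 and ITGA6. ITGA3 and ITGB6 overlapped there, while ITGB5 and ITGAV did not.

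The activators and actin linkers were less uniform, with 5 of 7 lower. TLN1, talin, which activates integrins and binds actin, read 6.20 and 8.13, 6.61 and 7.04, and 6.45 and 4.95 FPKM on gel at days 3, 5 and 8. On inserts it read 16.9, 18.1 and 16.0 FPKM at day 4 and 19.5, 20.4 and 19.1 at day 11, so that the lowest insert library was far above the highest gel library (log2 fold change -1.36 ± 0.07, adjusted p = 8.6e-11 by limma). VCL, vinculin, which reinforces the talin-actin link, read 32.4 and 30.0, 28.1 and 28.8, and 24.1 and 20.6 FPKM on gel. It read 52.7, 53.1 and 45.2 FPKM on inserts at day 4 and 85.3, 89.6 and 50.8 at day 11 (-1.14 ± 0.11, adjusted p = 5.33e-08 by limma). The sides did not overlap, and replicate 3 at day 11 was well below the other two.

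PARVA, which links the ILK complex to actin, and TNS1, a tensin that binds beta tails, were also lower (-0.68 ± 0.11 and -0.77 ± 0.15), as was the kindlin FERMT2 (-0.36 ± 0.10). ILK, the pseudokinase at the centre of that complex, and the second kindlin, FERMT1, did not pass the test. ILK read 11.4 to 18.6 FPKM on gel and 12.2 to 16.7 on inserts (log2 fold change -0.02 ± 0.08), and FERMT1 0.611 to 2.41 and 0.531 to 1.06 (0.15 ± 0.10).

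All 3 LIM proteins of adhesions were lower. ZYX, zyxin, which is recruited to adhesions under tension, read 33.8 and 36.3, 22.5 and 30.1, and 25.9 and 19.8 FPKM on gel at days 3, 5 and 8, against 61.8, 63.5 and 46.2 at insert day 4 and 97.1, 101 and 74.4 at day 11. The sides did not overlap (log2 fold change -1.35 ± 0.11, adjusted p = 8.38e-09 by limma). LPP, a zyxin relative, read 2.62 and 5.93, 5.60 and 5.65, and 2.62 and 3.66 FPKM on gel, against 6.78, 13.5 and 14.4, and 16.1, 17.5 and 14.9 on inserts (-1.48 ± 0.22, adjusted p = 1.53e-05 by limma). Its sides did not overlap either, but the libraries that stood apart held the lowest LPP value of day 0, of 3D day 3, of 3D day 8 and of 2D day 4. Whether that has a technical source was not tested. TES, testin, was lower by -0.49 ± 0.07.

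Of the signalling proteins and scaffolds, 5 of 6 were lower. DOCK1, an exchange factor for RAC1, read 8.73 and 11.0, 10.9 and 10.8, and 9.42 and 8.11 FPKM on gel, against 19.1, 20.8 and 17.7, and 19.1, 19.3 and 20.6 on inserts (-0.92 ± 0.07, adjusted p = 4.58e-09 by limma). The insert libraries lay in a narrow band well above every gel library. The scaffolds BCAR1 (p130Cas) and PXN (paxillin) were lower by -0.88 ± 0.10 and -0.81 ± 0.16, the kinase SRC by -0.56 ± 0.10, and PTK2, focal adhesion kinase, by -0.38 ± 0.06. The adaptor CRK was not called (0.16 ± 0.08), and it was higher on gel under quantile normalization (0.29) and median-ratio scaling (0.27), and without 3D day 5 replicate 3 (0.22, adjusted p = 0.0311 by limma).

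The other receptors and partners were lower as well. THBS1, thrombospondin 1, a secreted matrix protein that binds integrins, had the largest difference of the 31 genes, with 48.8 and 47.7, 41.2 and 54.5, and 40.7 and 43.3 FPKM on gel and 143, 169 and 174, and 386, 414 and 256 on inserts. The highest gel library was far below the lowest insert library (log2 fold change -2.34 ± 0.17, adjusted p = 2.03e-09 by limma). CD151, a tetraspanin that associates with laminin-binding integrins, was lower by -0.61 ± 0.08. CAV1, the coat protein of caveolae, was lower by -0.88 ± 0.13 (404 to 681 FPKM against 885 to 1351), whereas CAV2 was not called (-0.06 ± 0.10) except under quantile normalization (-0.29, adjusted p = 0.0199 by limma). DAG1, dystroglycan, a laminin receptor outside the integrin family, was called by a small margin (-0.31 ± 0.13, adjusted p = 0.0486 by limma). That call was lost when any of 10 libraries was left out (adjusted p of up to 0.226 without 3D day 8 replicate 2).

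**Figure D2:**
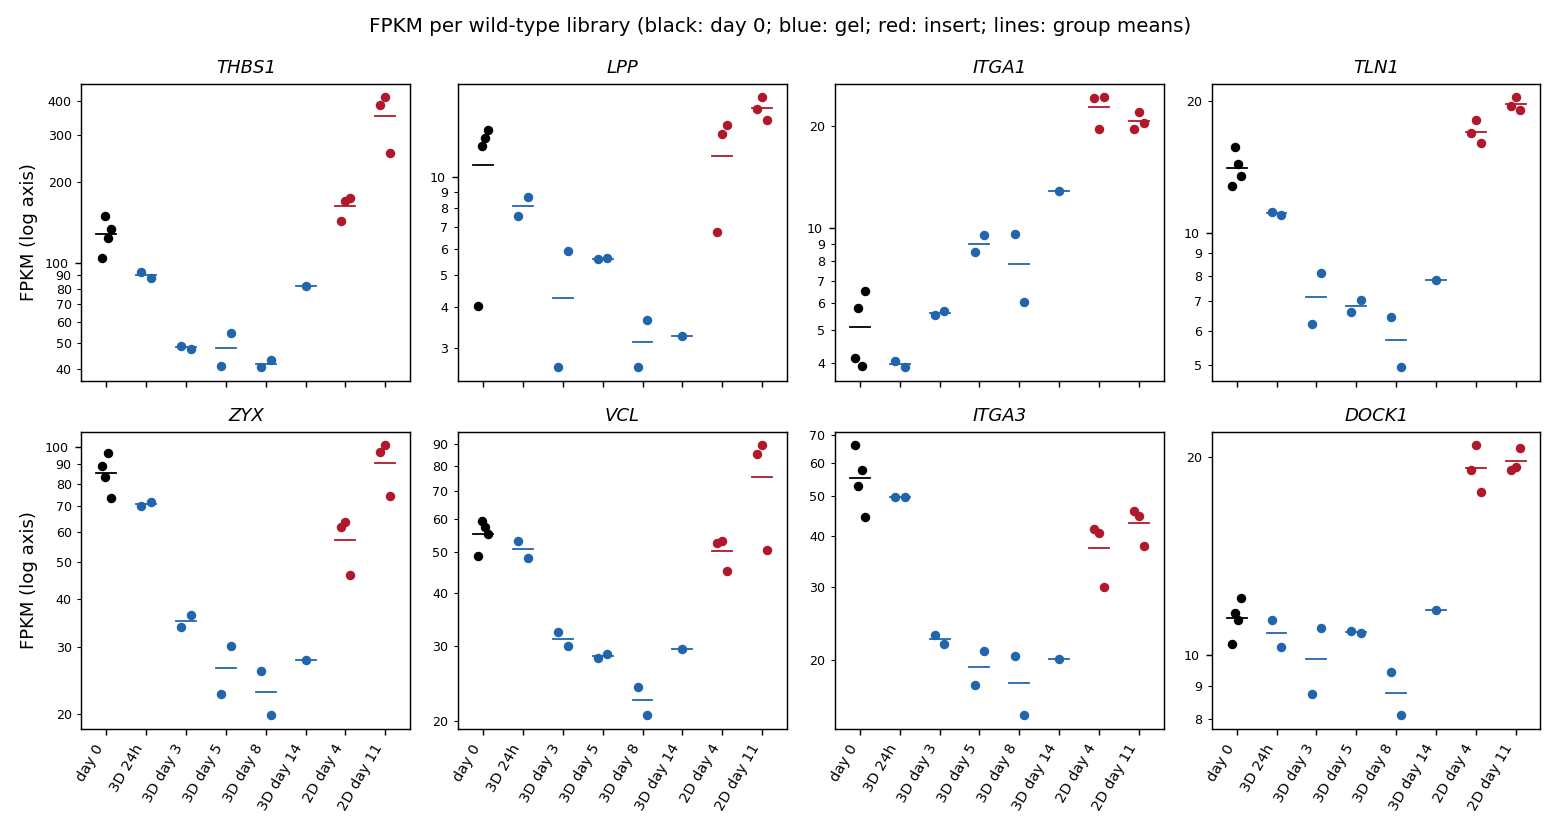
FPKM (y axes, logarithmic) of 8 genes in each wild-type library (x axis: groups), with group means as lines. They have the largest called differences between gel and insert among genes whose sides did not overlap. Black is day 0, blue gel and red insert. By this choice the blue points of days 3, 5 and 8 lie below every red point in each panel. TLN1, for example, read at most 8.13 against at least 16.0.

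The difference was present early and was larger for several genes late, although the times on gel and insert were not matched. In the early comparison (gel days 3 and 5 against insert day 4), 21 of 31 genes were lower and 2 higher (CRK 0.31 and FERMT1 0.39, both with overlapping libraries), against 22.9% and 20.9% of all genes. Without the libraries that stood apart, 19 were lower and 0 higher. In the late comparison (gel day 8 against insert day 11), 26 were lower and 0 higher by limma (0 also at an unadjusted p under 0.05), against 35.2% and 10.9% of all genes. The median of the 31 genes relative to the median of all genes was -0.60 in both comparisons. THBS1 differed by -1.73 ± 0.22 early and -3.01 ± 0.27 late, ZYX by -0.88 ± 0.14 and -1.94 ± 0.17, VCL by -0.73 ± 0.14 and -1.67 ± 0.17, and ITGA6 by -0.09 and -1.19 ± 0.18. ITGA1 (-1.54 ± 0.29 and -1.33 ± 0.35), ITGB6 (-0.89 ± 0.14 and -0.80 ± 0.16) and SRC (-0.57 ± 0.13 and -0.62 ± 0.15) had like values in both. The change between early and late was not tested.

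Late, all genes had a median of -0.20, the higher share of all calls rose from 23.6% to 49.7% under quantile normalization and 50.1% under median-ratio scaling, and both left 23 of the 31 genes lower and 1 higher. The epithelial marker sum was also lower at 3D day 8 (736 to 843 FPKM) than at 2D day 11 (1027 to 1102), and its part in these differences was not tested. Without 3D day 8 replicate 2, the late count fell to 20, with ITGA1 (adjusted p = 0.0804), ITGAV (0.0592), ILK (0.157), TNS1 (0.250), PXN (0.0650) and SRC (0.111) no longer called. ILK was also not called late without 2D day 11 replicate 1 (0.0578) or replicate 2 (0.0541), nor TNS1 without replicate 2 (0.0695) or replicate 3 (0.0558). FERMT1 and CRK lost their early calls without 2D day 4 replicate 3 (adjusted p = 0.183 and 0.160), without 3D day 3 replicate 1 (0.105 and 0.0603) and without 3D day 5 replicate 2 (0.0999 and 0.160), and CRK also without 3D day 3 replicate 2 (0.0651).

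The same machinery was then followed outside the named set, in 7 lists of related genes with 117 names, of which 80 could be tested. In the gel against insert comparison 62 of the 80 were lower and 6 higher, with a median of -0.60. Of all genes, 34.8% were lower and 22.1% higher, with a median of -0.08. The lists were chosen with earlier results of these data known, so they are not an independent set. Of the 22 other linkers and LIM proteins, 20 were lower, among them FLNA, a filamin that crosslinks actin (-1.38 ± 0.09), and the tensin TNS2 (-1.05 ± 0.08). Of 22 further signalling genes 14 were lower and 2 higher, with PEAK1, a pseudokinase of adhesions, at -0.97 ± 0.09 and the phosphatase PTPN11 at -0.80 ± 0.09. Of 5 caveola coat genes 4 were lower, with EHD2 at -1.37 ± 0.16 and SDPR, a cavin, at -1.21 ± 0.09. Of 7 hemidesmosome and tetraspanin genes 5 were lower and 1 higher, led by DST, a linker of integrins to keratin (-1.53 ± 0.10), and PLEC (-0.98 ± 0.09). Of 5 genes of the dystroglycan complex 3 were lower and 1 higher, with UTRN, utrophin, at -0.97. ITGA9 was the 1 other integrin subunit of 14 with a row that passed the filter, and it was lower too (-0.81 ± 0.10).

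Among the matrix ligands of integrins, 15 of 18 were lower on gel and 1 was higher, against 34.8% and 22.1% of all genes. COL4A1 and COL4A2, the chains of basement membrane collagen IV, differed most (-3.14 ± 0.27 and -3.02 ± 0.27), with COL4A1 at 0.617 to 11.1 FPKM on gel at days 3 to 8 and 20.9 to 52.6 on inserts. CYR61, a matricellular ligand, followed (-2.75 ± 0.20). TGFBI, a secreted protein that binds integrins, went the other way (2.61 ± 0.14), with 10.2 to 23.0 FPKM on gel and 1.29 to 2.83 on inserts. The matrigel itself supplies laminin and collagen IV, as background, and whether that bears on these values was not tested.

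Set against the cells taken for seeding, more genes were lower on gel with time, among the 31 and also among all genes. The shift of the set on inserts was smaller. On gel, the count of lower genes was 0 at 24 h, 13 at day 3, 15 at day 5 and 18 at day 8. As shares of the 31 these were 0%, 41.9%, 48.4% and 58.1%. The counts of higher genes were 0, 0, 3 and 0 (0%, 0%, 9.68% and 0%). On inserts at day 4, 11 genes were higher and 6 lower (35.5% and 19.4% of the 31). At insert day 11, 14 were higher and 1 lower (45.2% and 3.23%). All these comparisons share the 4 day 0 libraries. For all genes the shares lower were 0.561%, 23.1%, 31.2% and 38.0% on gel and 29.6% and 23.7% on inserts, and the shares higher were 0.629%, 28.0%, 26.4% and 24.7% on gel and 30.3% and 32.2% on inserts. At 24 h, where limma called 0 of 31, an unadjusted p under 0.05 was reached by 4 genes, all lower. On gel, the median of the 31 genes was -0.11 at 24 h, -0.19 at day 3, -0.29 at day 5 and -0.60 at day 8. That of all genes was 0.06, 0.05, -0.04 and -0.13. On inserts, the median of the 31 genes was 0.09 at day 4 and 0.24 at day 11, against 0.00 and 0.06 for all genes. The share of higher genes at insert day 4 was thus near that of all genes.

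**Figure D3:**
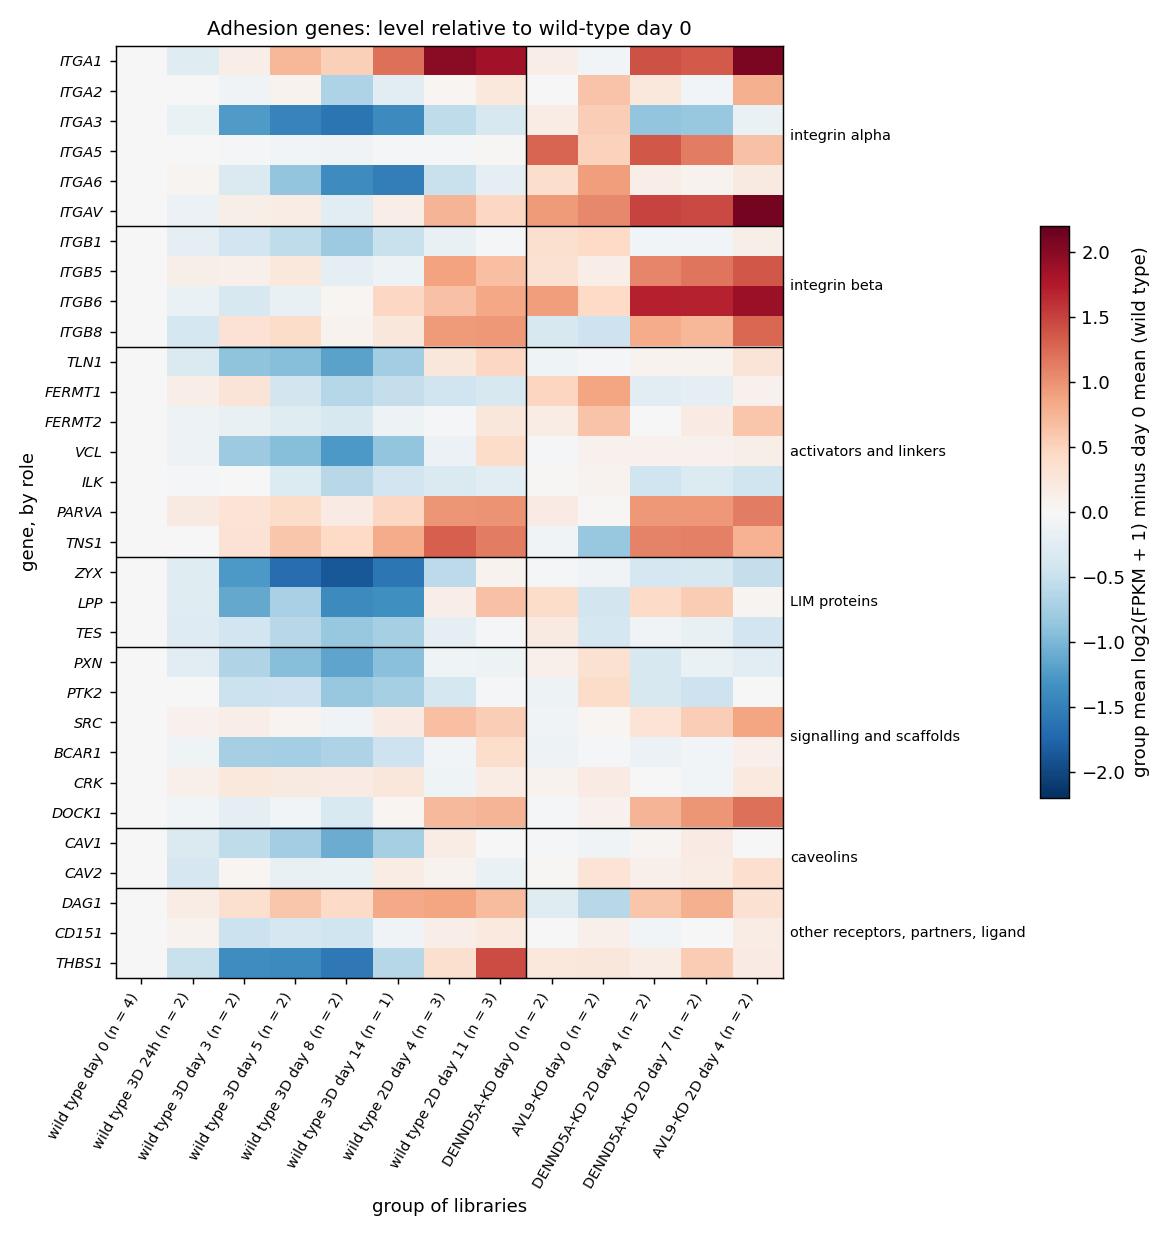
Group mean of log2(FPKM + 1) minus the wild-type day 0 mean (colour) for the 31 genes (rows, by role) in the 13 groups (columns, with the number of libraries). On gel (columns 2 to 6) the rows of ITGA3, ITGA6, TLN1, VCL, ZYX, LPP, PXN and THBS1 are blue by day 8, and on inserts those of ITGA1, ITGB8, PARVA, TNS1 and DAG1 are red. ITGA5, which passed the filter only through DENND5A-KD libraries, is red in knockdown columns.

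At gel day 3 the 13 lower genes already included ITGA3 (-1.25), THBS1 (-1.38), ZYX (-1.26), TLN1 (-0.90) and VCL (-0.80). On gel at day 8 the largest falls were those of ZYX, ITGA3, THBS1, LPP and ITGA6. ZYX fell by 1.86 ± 0.16 on the log2 scale, from 73.3 to 96.2 FPKM at day 0 to 19.8 and 25.9. ITGA3 fell by 1.60 ± 0.17, from 66.2, 52.9, 57.7 and 44.3 FPKM to 20.5 and 14.7. ITGA6 fell by 1.39 ± 0.17, from 12.4, 11.4, 11.0 and 8.59 FPKM at day 0, through 8.74 and 8.19 at day 3 and 5.30 and 5.62 at day 5, to 4.20 and 2.88. For all 3 genes every day 8 library was below every day 0 library. PXN fell by 1.16 ± 0.24, from 32.3, 28.6, 28.3 and 23.2 FPKM to 14.5 and 9.85, and THBS1 by 1.57 ± 0.25, from 104, 149, 124 and 134 to 40.7 and 43.3. Falls of 0.60 to 1.41 were found for LPP, VCL, TLN1, CAV1, TES, PTK2, ITGB1, ITGA2, BCAR1, FERMT1 and ILK. CD151 and DOCK1 fell by 0.43 and 0.34, and both lost their call without 3D day 8 replicate 2 (adjusted p = 0.0984 and 0.139 by limma).

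No gene of the 31 was called higher at day 8, with 1 at an unadjusted p under 0.05, but this depended on the scaling. Quantile normalization gave 16 lower and 5 higher (ITGB6, PARVA, TNS1, CRK and DAG1), and median-ratio scaling 17 lower and 3 higher (TNS1, CRK and DAG1). At day 5, PARVA, TNS1 and DAG1 were called higher (0.41, 0.61 and 0.61), each lost without 3D day 5 replicate 3 (adjusted p = 0.0912, 0.268 and 0.0896). PARVA also lost its call without 3D day 5 replicate 2 (0.221), and PARVA and TNS1 without day 0 replicate 1 (0.144 and 0.0953) and without day 0 replicate 3 (0.0617 and 0.0635). The split at day 5, 3 higher and 15 lower, became 8 and 14 under quantile normalization and 6 and 15 under median-ratio scaling. The share of higher genes among all calls at day 8 moved from 39.4% to 48.1% and 50.9%.

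Between gel days 3 and 8 directly, 7 genes were lower and 0 higher by limma (1 higher at an unadjusted p under 0.05), against 14.1% and 1.47% of all genes. These were ITGA6 (-1.07 ± 0.19), FERMT1 (-0.91 ± 0.18), ZYX (-0.61), ITGA2 (-0.59), ILK (-0.59), TES (-0.41) and PTK2 (-0.37). The ITGA6 call held with each library left out. The count moved with the settings: 4 under either scaling (3 lower and ITGB6 higher), 4 without the libraries that stood apart, and 2 without 3D day 8 replicate 2, the lowest of 2 to 7 with 1 library left out. It was 3 without 3D day 3 replicate 1 and 3 without 3D day 3 replicate 2. The share higher among all calls was 9.41% as scaled by the authors and 43.0% or 47.7% under the alternatives.

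The single day 14 library, which has no replicate and stood apart, was not tested. It read 3.12 FPKM for ITGA6, 20.1 for ITGA3, 27.7 for ZYX, 29.6 for VCL and 7.84 for TLN1, each below all day 0 libraries. ITGA1 (12.9), TNS1 (22.7) and DAG1 (67.8) were above all day 0 libraries, and THBS1 (81.7) lay above the gel libraries of days 3 to 8 and below day 0.

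On inserts, 5 of the 10 integrin subunits among the 31 genes were higher than at day 0 at both days: ITGA1, ITGAV, ITGB5, ITGB6 and ITGB8. ITGA2, a collagen receptor subunit like ITGA1, was not called (0.03 and 0.23). ITGA1 rose by 1.98 ± 0.29 at day 4 and 1.85 ± 0.29 at day 11, from 4.13, 5.80, 3.92 and 6.53 FPKM at day 0 to 19.6 to 24.4. ITGB8 rose by 0.95 ± 0.15 at both days, from 26.8, 44.7, 38.1 and 43.3 FPKM to 72.7, 85.4 and 63.0 at day 4 and 77.1, 76.4 and 67.3 at day 11. ITGB6 rose by 0.64 ± 0.14 and 0.85 ± 0.14, from 16.3, 25.3, 18.7 and 21.4 FPKM to 29, 36.0 and 31.5, and 39.9, 39.4 and 32.3. In each of these 3 genes all insert libraries lay above all day 0 libraries. ITGB5 (0.89 ± 0.16 and 0.67 ± 0.16) and ITGAV (0.76 ± 0.13 and 0.46 ± 0.13) were higher as well.

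Of the linkers, TNS1 rose by 1.32 ± 0.20 at day 4 and 1.13 ± 0.20 at day 11, from 8.13, 16.6, 11.2 and 15.8 FPKM to 36.3, 28.8 and 32.9, and 26.2, 30.2 and 29.3. PARVA rose by 0.96 ± 0.15 and 0.98 ± 0.15, from 10.1, 15.5, 14.0 and 15.6 FPKM to 24.5, 29.8 and 28.5, and 26.3, 28.7 and 28.6. Neither gene had an insert library within its day 0 range. DAG1 rose by 0.86 ± 0.17 and 0.69 ± 0.17, from 37.3, 40.6, 35.7 and 37.4 FPKM to 80.7, 66.7 and 62.0, and 64.3, 63.6 and 57.1. DOCK1 rose by 0.71 ± 0.09 and 0.74 ± 0.09, SRC by 0.67 ± 0.13 and 0.54 ± 0.13, and TLN1 by 0.26 ± 0.10 and 0.46 ± 0.10. The TLN1 call at day 4 was lost without any of 4 libraries (day 0 replicates 1 and 4, adjusted p = 0.0838 and 0.0616, and 2D day 4 replicates 1 and 2, 0.0592 and 0.116).

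Lower on inserts at day 4 were ZYX (-0.58 ± 0.14), ITGA3 (-0.55 ± 0.15), ITGA6 (-0.50 ± 0.15), FERMT1 (-0.44 ± 0.14), PTK2 (-0.39 ± 0.09) and ILK (-0.32 ± 0.10), of which ITGA6, FERMT1 and ILK lost their call without 2D day 4 replicate 3 (adjusted p = 0.0815, 0.0799 and 0.119). With replicate numbers as a block, TES was called lower as well at day 4 (-0.21, adjusted p = 0.0339 by limma). At day 11 FERMT1 alone was lower (-0.36 ± 0.14). Its call was lost without each of 6 libraries in turn, the 3 of day 11 and day 0 replicates 1, 2 and 3 (adjusted p from 0.0525 to 0.0812). VCL (0.40 ± 0.14) and BCAR1 (0.39 ± 0.13) were higher at day 11, lost without 2D day 11 replicate 1 (0.133 and 0.0584) or replicate 2 (0.166 and 0.0854), VCL also without day 0 replicate 1 (0.0616). The day 11 split, 14 higher and 1 lower, became 16 and 2 under quantile normalization and 14 and 3 under median-ratio scaling. ILK was called lower under both scalings (-0.22 and -0.30), and ITGA3 under median-ratio scaling (-0.42, adjusted p = 0.00454 by limma). Without day 0 replicate 1, the median of the 31 genes at day 4 changed from 0.09 to -0.03.

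From insert day 4 to day 11, THBS1 (1.09 ± 0.24), ZYX (0.66 ± 0.15) and PTK2 (0.36 ± 0.09) were called higher and 0 genes lower (1 lower at an unadjusted p under 0.05), against 1.90% and 0.178% of all genes. THBS1 read 143, 169 and 174 FPKM at day 4 and 386, 414 and 256 at day 11, without overlap. The calls were not stable. None of the 3 was called without the libraries that stood apart (adjusted p = 0.0899, 0.0514 and 0.0905), nor without 2D day 11 replicate 1 (0.177, 0.203 and 0.245), 2D day 11 replicate 2 (0.190, 0.233 and 0.270) or 2D day 4 replicate 3 (0.128, 0.202 and 0.219). ZYX was the 1 called without 2D day 4 replicate 1. The replicate block, and likewise the omission of 2D day 11 replicate 3, gave 5 called genes. The higher share of all calls was 91.4%, and 67.7% and 74.0% under the scalings.

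The genes thus fell into unlike courses, shown by their values against day 0 at gel day 8 and insert day 11 side by side. TLN1 (-1.18 and 0.46), THBS1 (-1.57 and 1.43), VCL (-1.27 and 0.40) and BCAR1 (-0.67 and 0.39) were called in opposite directions. ITGA3 (-1.60 and -0.35), ITGA6 (-1.39 and -0.20), ZYX (-1.86 and 0.08), PXN (-1.16 and -0.11) and CAV1 (-1.10 and -0.01) were called on gel alone. Of these, ITGA3 was also called lower at insert day 11 under median-ratio scaling (-0.42) and with the replicate block (-0.37). ITGA1 (0.53 and 1.85), ITGB6 (0.04 and 0.85), ITGB8 (0.07 and 0.95), PARVA (0.17 and 0.98), TNS1 (0.44 and 1.13) and SRC (-0.07 and 0.54) were called on inserts alone. Both columns share the day 0 libraries, and a call in one and not in the other is not a test of their difference, which the late comparison above gives. As a description over the 13 group means, the 465 pairs of genes had a median Pearson r of 0.49 (from -0.87 for FERMT1 with DAG1 to 0.96 for TLN1 with VCL), with 75 pairs above 0.8. The points share libraries and scaling, and no test was made.

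The related genes moved in the same comparisons with larger falls in places. At gel day 8, 52 of the 80 were lower than at day 0 and 9 higher, against 38.0% and 24.7% of all genes. FLNA fell by 2.87 ± 0.14 (from 131 to 153 FPKM to 15.7 and 21.6), ACTN1, alpha-actinin, by 2.68 ± 0.15, the hemidesmosome collagen COL17A1 by 2.86 ± 0.20 and PLEC by 2.18 ± 0.14. Of the ligands, CYR61 fell by 3.83 ± 0.29 and LTBP1, which tethers latent TGF-beta in the matrix, by 3.51 ± 0.16, while TGFBI rose by 1.69 ± 0.21. On inserts at day 11, 26 were higher and 16 lower (23 and 26 under median-ratio scaling), near the 32.2% and 23.7% of all genes. COL4A1 rose by 2.91 ± 0.35, AGRN, a basement membrane proteoglycan, by 1.54 ± 0.16, and the tetraspanin CD82 by 1.59 ± 0.12, and CD82 was also higher at gel day 8 (1.34 ± 0.14). FLNA (-0.74 ± 0.12) and ACTN1 (-0.66 ± 0.14) were lower on inserts at day 11 too.

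The knockdowns were compared with wild type at day 0 and at 2D day 4. In DENND5A-KD cells the called genes were ITGAV, ITGB6 and ITGA5 at both days and ITGA6 at 2D day 4. At day 0, 3 were higher and 0 lower, against 3.27% and 2.25% of all genes, and at 2D day 4, 4 were higher and 0 lower, against 5.54% and 5.79%. These counts include ITGA5, which passed the filter only through DENND5A-KD libraries, and without it 2 and 3 genes were higher. At an unadjusted p under 0.05 the lower counts were 0 and 1.

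ITGAV read 35.3 and 34.4 FPKM in DENND5A-KD cells at day 0, against 16.0, 19.7, 15.8 and 19.7 in wild type (0.94 ± 0.14, adjusted p = 0.000267 by limma). At 2D day 4 it read 48.5 and 54.8 against 31.2, 32.5 and 28.2 (0.74 ± 0.15, adjusted p = 0.00294), and at day 7, where wild type was not sampled, 49.0 and 50.8. Its partner ITGB6 read 40.0 and 37.8 FPKM at day 0 against 16.3, 25.3, 18.7 and 21.4 (0.92 ± 0.16, adjusted p = 0.000862 by limma), and 55.8 and 84.3 against 29, 36.0 and 31.5 at 2D day 4 (1.08 ± 0.16, adjusted p = 0.000241). For both subunits every knockdown library lay above every wild-type library of the same day.

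ITGA5 read 1.55 and 1.77 FPKM in DENND5A-KD cells at day 0, 1.88 and 1.82 at 2D day 4 and 1.54 and 1.28 at day 7, and at most 0.164 in the 19 wild-type libraries. Its fold changes were 1.27 ± 0.11 and 1.40 ± 0.12, and since the gene passed the filter through these same libraries, a difference was built into its selection. ITGA6 was called at 2D day 4 (0.63 ± 0.18, adjusted p = 0.0240 by limma), but not without line 1 (0.219), line 2 (0.0650) or wild-type 2D day 4 replicate 3 (0.103). The other partners of ITGAV, ITGB5 (0.34 and 0.19) and ITGB8 (-0.35 and -0.14), were not called. With the 2 groups of each comparison fitted alone, 2 of the 3 and 1 of the 4 genes were called. At 2D day 4 quantile normalization gave 4 higher and 1 lower (SRC).

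**Figure D4:**
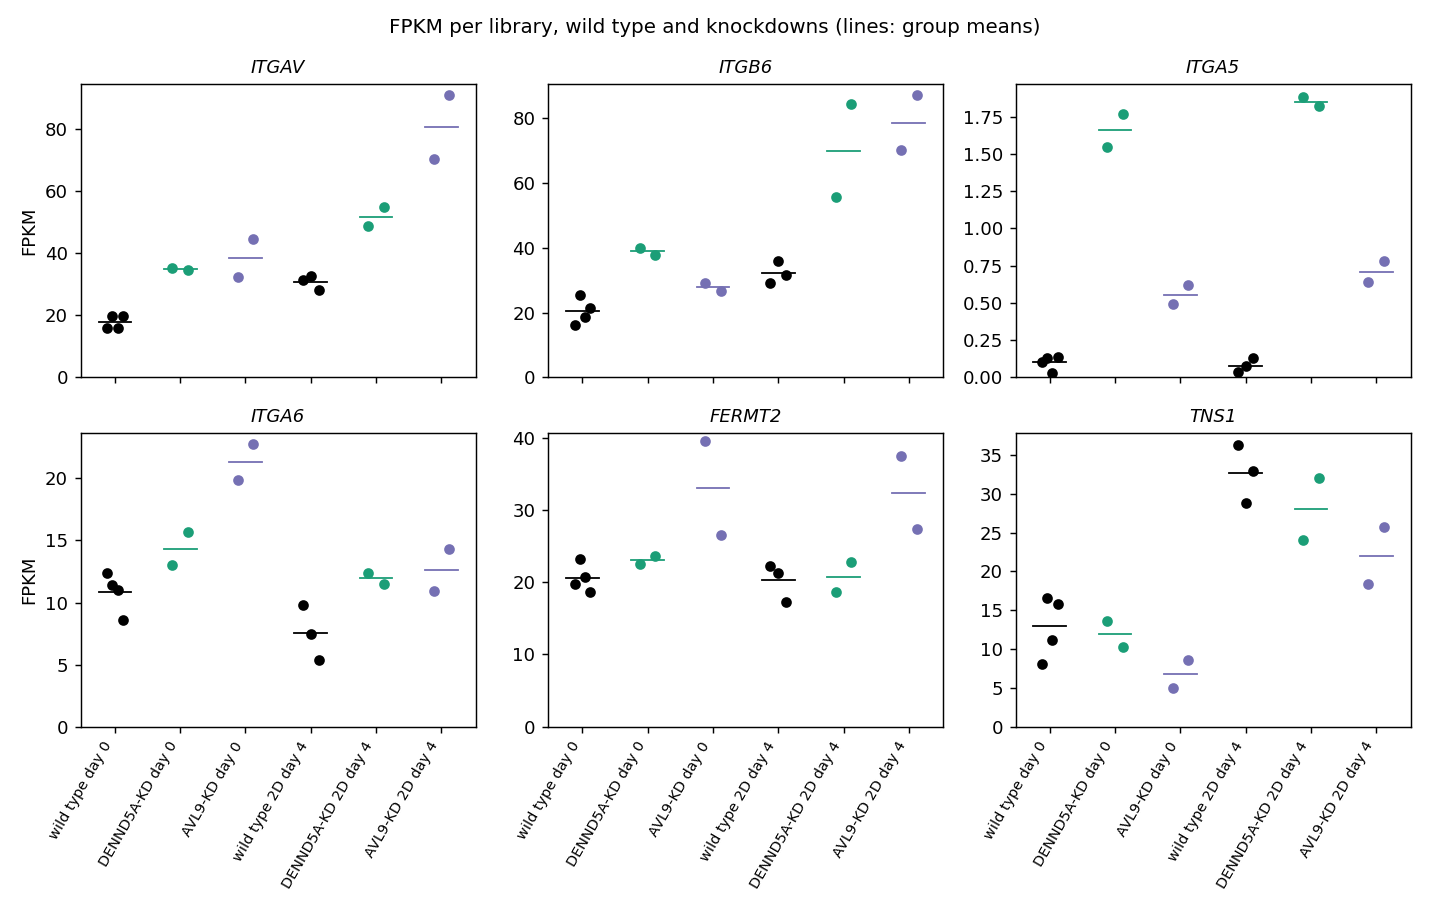
FPKM (y axes, from 0) of 6 adhesion genes in each library of wild type (black), DENND5A-KD (green) and AVL9-KD (purple) at day 0 and at 2D day 4 (x axis), with group means as lines. ITGAV lies above wild type of the same day in every knockdown library. ITGA5, which passed the filter only through DENND5A-KD libraries, reads 0.493 or more in knockdown libraries against 0.135 or less in wild type. The lines of AVL9-KD differ from each other in FERMT2.

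In AVL9-KD cells more of the genes were higher, on a background of more genes being higher in general. At day 0, 9 of 31 were higher and 3 lower, against 13.4% and 4.59% of all genes, and at 2D day 4, 9 were higher and 0 lower (2 lower at an unadjusted p under 0.05), against 18.7% and 2.34%. The median of the 31 genes was 0.11 at day 0 and 0.25 at 2D day 4, and that of all genes 0.11 and 0.19. As a set the 31 genes thus differed from all genes by 0.00 and 0.06. The medians of all genes became 0.00 or below under both scalings, so the fold changes below are to be read against them. ITGAV read 32.3 and 44.4 FPKM at day 0 against 15.8 to 19.7 in wild type (1.06 ± 0.14, adjusted p = 4.72e-05 by limma) and 70.2 and 90.7 at 2D day 4 against 28.2 to 32.5 (1.36 ± 0.15, adjusted p = 6.99e-06). ITGB6 read 29 and 26.7 FPKM at day 0, above the wild-type range of 16.3 to 25.3 but not called (0.45), and 70.2 and 87.2 at 2D day 4 (1.26 ± 0.16, adjusted p = 3.93e-05 by limma).

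ITGA2, a collagen receptor subunit, read 109 and 98.9 FPKM in AVL9-KD cells at day 0 and 118 and 114 at 2D day 4, above all wild-type libraries of those days (0.63 ± 0.14 and 0.75 ± 0.14). ITGA6 was higher by 0.92 ± 0.17 and 0.70 ± 0.18, the kindlins FERMT1 by 0.86 ± 0.16 and 0.54 ± 0.16 and FERMT2 by 0.63 ± 0.16 and 0.64 ± 0.16, and PTK2 by 0.40 ± 0.10 and 0.37 ± 0.10. ITGA5 read 0.493 and 0.618 FPKM at day 0 and 0.637 and 0.783 at 2D day 4 (0.50 ± 0.11 and 0.67 ± 0.12). It is counted among the higher genes at both days, although it was below 1 FPKM in these cells and passed the filter only through DENND5A-KD libraries. ITGA3 (0.54) and ITGB1 (0.44) were called higher at day 0 alone, DOCK1 (0.50) at 2D day 4 alone, and TNS1 (-0.84), DAG1 (-0.61) and TES (-0.39) lower at day 0.

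The 2 AVL9-KD lines were unlike each other. At day 0, lines 1 and 4 read 50.6 and 24.6 FPKM for PXN, 229 and 99.4 for THBS1, 39.6 and 26.6 for FERMT2 and 166 and 125 for ITGB1, and at 2D day 4 ITGA1 read 41.8 and 13.8. Line 1 at 2D day 4 had a relative depth of 1.64 and line 4 of 0.53, and at day 0 the values were 0.73 and 1.66. Without line 1, the day 0 count fell from 12 to 5, with ITGA2 (adjusted p = 0.0696), ITGA3 (0.243), ITGB1 (0.364), FERMT2 (0.247), TNS1 (0.316), TES (0.169) and PTK2 (0.136) lost, and without line 4, ITGA3 (0.0737) and DAG1 (0.479). ITGA3 and DAG1 also lost their calls without wild-type day 0 replicates 2, 3 or 4 (up to 0.108 and 0.0737), and ITGB1 and TNS1 without replicate 4 (0.0557 and 0.0556). At 2D day 4 the count fell from 9 to 5 without wild-type replicate 3, with ITGA6 (0.0584), FERMT1 (0.126), FERMT2 (0.0537) and PTK2 (0.0635) lost. FERMT1, FERMT2, PTK2 and DOCK1 were lost there without line 1 (0.352, 0.171, 0.140 and 0.113) and ITGA6 without line 4 (0.109). ITGAV was called with either line left out at both days, as was ITGB6 at 2D day 4. ITGA5 was also called with either line left out, but at values below 1 FPKM in every AVL9-KD library. Each of these fits holds 1 AVL9-KD library at that day, which is assumed to vary like the other groups.

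Scaling moved the direction of the AVL9-KD counts. At day 0 the 9 higher and 3 lower genes became 5 and 4 under quantile normalization and 8 and 4 under median-ratio scaling, and at 2D day 4 the 9 and 0 became 7 and 4, and 5 and 4, with ILK, TNS1, TES and DAG1 lower. Over all genes the higher share of calls moved from 74.5% to 48.5% and 48.8% at day 0 and from 88.9% to 53.1% and 50.3% at 2D day 4. Fitted on the 2 groups alone, 4 genes were called at day 0 and 0 at 2D day 4. Of the 80 related genes, 17 rose and 3 fell at day 0, against 13.4% and 4.59% of all genes. These counts became 12 and 8 under quantile normalization, 14 and 8 under median-ratio scaling, and 3 and 2 with only those groups fitted. At 2D day 4, 19 rose and 1 fell, against 18.7% and 2.34% of all genes. These counts became 5 and 9 under quantile normalization, 4 and 7 under median-ratio scaling, and 0 and 0 with only those groups fitted. RASA1, a RAS GTPase activator, was higher at both days (0.97 ± 0.14 and 0.87 ± 0.14), as was PTRF, the main cavin (0.77 ± 0.15 and 0.74 ± 0.16). In DENND5A-KD cells 2 of the 80 were higher and 1 lower at day 0, against 3.27% and 2.25% of all genes. The higher ones were COL4A1 (2.69 ± 0.40) and COL4A2 (2.17 ± 0.41, lost without line 2). At 2D day 4, 5 were higher and 4 lower, near the shares of all genes (5.54% and 5.79%). The 2D day 4 counts became 10 and 4 under quantile normalization and 7 and 4 under median-ratio scaling. They were 2 and 3 without the libraries that stood apart, and 0 and 0 with only those groups fitted.

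Whether the effect of a knockdown differed between day 0 and 2D day 4 was tested by an interaction. Limma called 0 of 31 genes for DENND5A-KD, with 0 at an unadjusted p under 0.05, against 1.15% of all genes called in the positive and 0.679% in the negative direction. For AVL9-KD it also called 0, with ITGB6 (0.81 ± 0.23), ITGB8 (0.78 ± 0.25) and DOCK1 (0.40 ± 0.16) at an unadjusted p under 0.05 (adjusted p = 0.0933, 0.178 and 0.287), against 0.985% and 0.238% of all genes. Without wild-type day 0 replicate 1, which stood apart, 2 genes were called. From day 4 to day 7 in DENND5A-KD cells, 0 of 31 were called and 0 had an unadjusted p under 0.05, against 0.0170% and 0.0340% of all genes. The higher share of all calls moved by more than 10 points under the scalings for the AVL9-KD interaction (80.6% to 68.8% and 63.4%), from day 4 to day 7 (33.3% to 14.2% and 12.5%, of 6 calls in the first case) and at 24 h on gel (52.9% to 38.2% and 38.9%).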

How the data were processed

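Poly(A) RNA was sequenced with a strand-specific kit, per the labels' protocols, in 29 libraries of 13 groups. The authors deposited FPKM per gene and library; HISAT2 2.1.0, Cufflinks 2.2.1 and the builds canFam3 and CanFam3.1 are named in the submitters' processing notes. FPKM values carry no read counts, so absolute depth is unknown; relative depth was read from the step between low values.

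Genes that reached 1 FPKM in 2 or more libraries entered the test, on log2(FPKM + 1) with limma 3.58.1 (R 4.3.3), with 1 mean per group, a trended prior variance and Benjamini-Hochberg adjustment over all 11774 genes. Fold changes are on that scale, which understates low genes. Tables and figures used Python 3.11.15. The fit was tested on simulated data. Groups came from the sample labels.

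The members and gene lists were chosen with earlier results of these data known. Values in every library were given to the 8 genes with the largest called, non-overlapping differences (mean of at least 5 FPKM) in the main comparisons, group values or ranges to expressed integrin subunits, and from each related list up to 3 genes per direction were eligible to be named. Names given outside this rule (the single libraries of other genes, the day 14 values and the knockdown lines) were chosen after their values were seen. Alternatives were other scalings, pseudocount, filter, replicate block, smaller fits and omitted libraries. Same-numbered libraries of day 0 and 2D day 4 deviated together (r = 0.56, 0.23 and 0.13, the first between libraries that stood apart). This met the rule for pairing over 0.1, and other wild-type groups with 3 shared numbers did not meet it. Outside the libraries that stood apart, those of day 0 and 2D day 4 with unlike numbers had r of 0.11 to 0.32. The rule thus does not show that the numbers pair cultures.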

Additional observations from a re-analysis of the deposited data

Results flagged for a closer look

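LPP, a LIM protein of adhesions, read 4.03 FPKM in wild-type day 0 replicate 1 and 12.4 to 13.9 in the other 3 day 0 libraries, a gap of 0.847 of the whole range, which is larger than Dixon's test allows for 4 samples. Chance alone marks about 1 in 20 groups in this way, and all 31 genes were screened at day 0, so 1 such flag is not unusual. The library is among the 5 that stood apart. LPP read 2.62 against 5.93 FPKM in the 2 libraries of 3D day 3, and 6.78 against 13.5 and 14.4 at 2D day 4, the first value of each being from a library that stood apart. Without those libraries LPP was called at 24 h on gel (-0.64, adjusted p = 0.00755 by limma), at 3D day 5 (-1.09, adjusted p = 4.38e-07) and at day 0 in the AVL9-KD lines (-0.77, adjusted p = 0.000121), where it was not called with them. The same held at 2D day 11 against day 0 (0.28, adjusted p = 0.0186 by limma) and in the AVL9-KD lines at 2D day 4 (-0.39, adjusted p = 0.0226). From 3D day 3 to day 8, with 1 library left in each group, the log2 fold change of LPP was -0.57. The cause was not tested.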

How the results depend on the processing

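Over all comparisons with day 0, between gel and insert, between times and between genotypes, limma made 194 calls on the 31 genes. Of these, 194 were kept with a pseudocount of 0.1, 190 without the expression filter, 177 under quantile normalization, 179 under median-ratio scaling, 191 with a term for the libraries that stood apart, 172 without those libraries and 150 when only the groups of a contrast were fitted; 53 were lost when some 1 library was left out, and 0 changed sign. The replicate block lost 0 of the 194 calls. It gave 5 called genes from 2D day 4 to day 11 (3 without the block). Against day 0 it added ITGA6 at 3D day 3, ITGA1, ITGB8 and LPP at 3D day 5, and FERMT2 and DAG1 at 3D day 8. On inserts it added ITGA3, ILK and LPP at day 11. It also added TES at 2D day 4, where the numbers met the rule for pairing, with the limit given above. The block further added DAG1 in the early comparison and ITGB1 from 3D day 3 to day 8.

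Counts of called genes that moved by over 1.5 times were these. At 24 h on gel 1 gene was called under median-ratio scaling and 1 without the libraries that stood apart, against 0. From 3D day 3 to day 8 (7 called) there were 4 under either scaling, 4 without the libraries that stood apart, 0 with only those groups fitted and 2 to 7 with 1 library left out. From 2D day 4 to day 11 (3 called) there were 0 with only those groups fitted, 0 without the libraries that stood apart and 0 to 5 with 1 library left out. DENND5A-KD at 2D day 4 (4 called) gave 1 with only its groups fitted. AVL9-KD gave 4 at day 0 (12 called) and 0 at 2D day 4 (9 called) with only its groups fitted, and 5 to 14 and 5 to 9 with 1 library left out. The AVL9-KD interaction (0 called) gave 0 to 2. The median of the 31 genes at 2D day 4 against day 0, which was 0.09, ranged from -0.03 (without day 0 replicate 1) to 0.08 with 1 library left out. The cause of these moves was not tested, except that the fits on fewer groups have fewer samples.

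Counts of called genes over all genes moved by over 1.5 times in at least 1 setting in these comparisons, given with the lowest and highest count over all settings: 24 h (140, 16 to 314), 3D day 8 against day 3 (1838, 2 to 2583), 2D day 11 against day 4 (245, 0 to 590), DENND5A-KD at day 0 (650, 207 to 897) and at 2D day 4 (1334, 97 to 2069), AVL9-KD at day 0 (2118, 342 to 2745) and at 2D day 4 (2474, 25 to 3328), the DENND5A-KD and AVL9-KD interactions (215, 45 to 462, and 144, 15 to 270), DENND5A-KD day 7 against day 4 (6, 0 to 213) and late gel against insert (5431, 3609 to 6071). Most gel and knockdown groups hold 2 libraries, and FPKM without counts give no interval for low genes such as ITGA5.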

Other observations

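In AVL9-KD cells at day 0, THBS1 and PXN were not called with both lines, and were called with line 1 as the only AVL9-KD library (0.85 and 0.84, adjusted p = 0.0314 and 0.0396 by limma, the lone library being assumed to vary like the other groups). ITGB8, a subunit that was higher on inserts, read 29.7 and 24.7 FPKM in AVL9-KD cells at day 0 against 26.8 to 44.7 in wild type and was not called. It was called lower by limma under quantile normalization (-0.62, adjusted p = 0.0361) and median-ratio scaling (-0.59, adjusted p = 0.0267). The same held with a term for the libraries that stood apart (-0.51, adjusted p = 0.0367) and without those libraries (-0.61, adjusted p = 0.0122). Without wild-type day 0 replicate 1 it was called lower as well (-0.61, adjusted p = 0.00737). At 2D day 4 it read 79.2 and 106 FPKM in these cells against 63.0 to 85.4 in wild type.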
